A study of Mus musculus with 4 samples.

Results

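The genes described here are those that make or control gastric acid: the proton pump subunits Atp4a and Atp4b, the transporters and channels Slc26a7, Clic6 and Aqp4, the receptors Hrh2, Cckbr, Chrm3 and Sstr2, and the nuclear receptor Esrrg. They are 10 genes, and a gene's probes were found by matching the accession of each array probe to a table of mouse RefSeq genes. The match gave 13 probes for 8 of the genes, among 24375 probes with a symbol for 17016 genes on the array, and Hrh2 and Sstr2 were not analysed here. RNA was measured on 4 one-colour oligonucleotide arrays, 2 of lineage-negative CD44+ cells and 2 of lineage-negative CD44- cells. Both groups came from glandular stomach tumours of K19-Wnt1/C2mE mice aged 30 weeks. In these mice the keratin 19 promoter drives Wnt1 together with the prostaglandin enzymes Ptgs2 and Ptges in the gastric epithelium, so the CD44- cells were sorted from the same tumours and are not a sample of normal mucosa. The comparison asks how the cells that carry CD44, a hyaluronan receptor used to enrich tumour-initiating cells, differ from those that do not. The lineage markers used in the sort, and whether the replicates came from separate mice, are not given in the sources used here, so each p-value refers to the spread among these samples alone, and that spread may be technical.

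Parietal cells are the acid-secreting cells of the gastric body. Their H+/K+-ATPase, a catalytic alpha subunit (Atp4a) with a glycosylated beta subunit (Atp4b), exchanges cytoplasmic protons for luminal potassium, which apical potassium channels return to the lumen, while chloride leaves by apical channels and bicarbonate leaves by anion exchange on the basal side. Histamine acting on Hrh2, gastrin acting on Cckbr and acetylcholine acting on Chrm3 stimulate the cell, and somatostatin acting on Sstr2 inhibits it. Loss of parietal cells precedes mucous metaplasia in the stomach, and CD44 is a surface protein of metaplastic and proliferating gastric cells.

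The arrays were on 1 slide and in 1 scan. The 75th percentile of processed signal over gene probes ran from 244 on the first CD44+ array to 527 on the second CD44- array, and the share of gene spots well above background from 53.1% to 69.6% on the same arrays. No gene spot was saturated. In what follows a level is log2 processed signal less the 75th percentile of its array, and a difference is the CD44+ mean minus the CD44- mean. Cd44 itself, the sort marker, had levels of 6.31 and 6.54 in the CD44+ cells against 4.26 and 5.11 in the CD44- cells. All 6 epithelial markers (Epcam, Cdh1, Krt8, Krt18, Krt19 and Cldn18) were detected in both groups, with median levels between 5.77 and 7.47. Precision is limited by the number of arrays, 2 per group.

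Atp4b, the beta subunit of the proton pump, was 40.0-fold lower in CD44+ cells by the group means, and 2 of 3 probes for the water channel Aqp4 gave signal well above background in the CD44- cells alone. Atp4a differed less between the groups than between the 2 CD44- arrays, Clic6 and Esrrg had slightly more signal in CD44+ cells, and Slc26a7 was not well above background anywhere. Of the 13 probes, 6 were well above background on all 4 arrays and 2 on none, against 63.9% and 17.2% of all probes with a symbol. A gene was tested if both arrays of 1 group or the other had a probe of it well above background, and was represented by its brightest such probe, which left 6 of the 8 genes. With limma and Benjamini-Hochberg adjustment at 0.05 none of the 6 passed, where 84 of all 21045 genes (0.399%) did, 79 (0.375%) lower and 5 (0.0238%) higher in CD44+ cells. At an unadjusted p under 0.05, 1 of the 6 passed, against 10.8% of all genes. The groups did not overlap for 2 of the 6, both lower in CD44+ cells, against 39.6% of all genes in either direction. The median difference of the 6 was -0.58, with 4 below 0, against a median of 0.16 over all genes, 39.4% of which were below 0. The exact permutation test of 2 arrays against 2 cannot give a two-sided p below 0.333 and was not run.

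**Figure D1:**
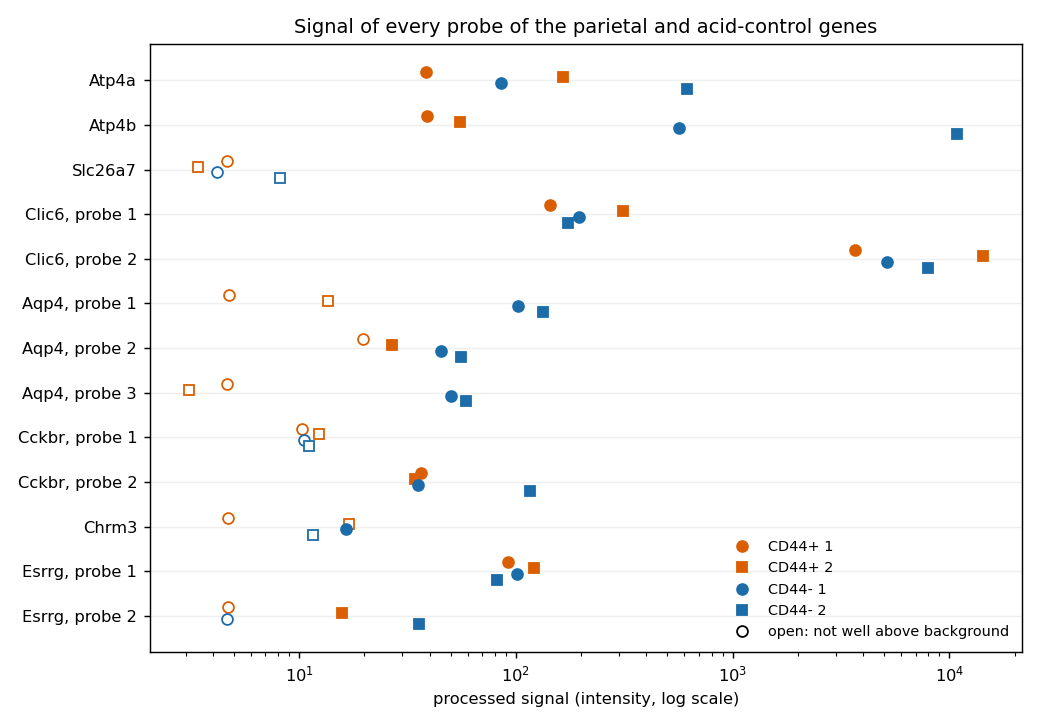
Processed signal (intensity, log scale) of each of the 13 probes on the 4 arrays; orange marks CD44+ and blue CD44- arrays, circles the first and squares the second replicate, and open symbols spots not well above background. Atp4b rises from 38.9 and 55.4 on the CD44+ arrays to 565 and 10871 on the CD44- arrays, while the brighter Clic6 probe stays between 3662 and 14259 on all 4.

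Atp4b gave processed signals of 38.9 and 55.4 in CD44+ replicates 1 and 2 and of 565 and 10871 in CD44- replicates 1 and 2, and values below keep this order. The probe was well above background on all 4 arrays. On the CD44+ arrays the lowest signals well above background were 22.9 and 14.1, so its values there were low but detected. The groups did not overlap, with CD44+ cells lower. Non-overlap in this direction was found for 17.2% of all genes. On the scaled log2 scale the levels were -2.65 and -3.15 against 0.48 and 4.37, a difference of -5.32 ± 1.07 (SE, n = 2 arrays per group), with a 95% interval from -7.79 to -2.85. Its limma adjusted p of 0.106 did not pass. With normexp background correction the difference was -4.10. The 2 CD44- arrays differed from each other by 14.8-fold in this gene, a gap that 109 of the 21045 genes (0.518%) matched or exceeded in either direction. Without the first CD44- array the difference was -7.27 (adjusted p = 5.45e-14) and without the second it was -3.38 (adjusted p = 0.000451). A fit that leaves 1 array in a group takes the spread from the other group alone. Here that spread was mostly pooled over all genes (73.3 degrees of freedom from the variance model) and was not that of Atp4b itself. These p-values thus assume that the lone CD44- array varies as the CD44+ pair does over all genes. Each CD44- array lay above both CD44+ arrays. Without CD44+ replicate 1 or 2 it was -5.57 (adjusted p = 0.537) and -5.07 (adjusted p = 0.315). Atp4b passed under 7 of 17 alternative settings, with a difference between -7.27 and -3.38 over all of them and an adjusted p from 3.27e-22 to 0.537. The lowest adjusted p came from the replicate block, which gave every gene the same standard error (0.516) and so did not measure the spread of Atp4b. In RNA from sorted cell mixtures, fewer cells of a type and less RNA per cell cannot be told apart.

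Atp4a, which carries the catalytic site of the same pump, did not show the same separation. Its processed signals were 38.6 and 166 in CD44+ cells and 85.8 and 616 in CD44- cells. The groups overlapped, because the second CD44+ array lay above the first CD44- array. In scaled levels these were -2.66 and -1.57 against -2.24 and 0.23, and the difference was -1.11 ± 0.80 (SE, n = 2 per group, limma adjusted p = 0.766, 95% interval -2.96 to 0.74). The second array of each group was the brighter one, by 2.13-fold in CD44+ and 5.54-fold in CD44- cells. The direction rested on the second CD44- array: without it the difference was 0.13, and without the first CD44- array it was -2.34. Both pump subunits were thus highest on the second CD44- array, as were 25.3% of all genes tested, and the difference between the 2 subunits' changes was not tested.

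Slc26a7, an anion exchanger of the basolateral membrane of parietal cells, had processed signals of 4.67 and 3.43 in CD44+ cells and 4.20 and 8.15 in CD44- cells. None was well above background. Values of this size have no order, since 19.6% to 31.0% of gene spots on each array had a signal under 5. Its transcript was therefore not detectable with this probe in either group, and no difference is given.

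Clic6, a chloride intracellular channel family member found in gastric parietal cells and other secretory epithelia, was the acid gene with ample signal everywhere. Its brighter probe gave 3662 and 14259 in CD44+ cells and 5166 and 7950 in CD44- cells. The scaled levels of 3.91 and 4.86 against 3.67 and 3.92 overlapped by a narrow margin, with a difference of 0.59 ± 0.50 (SE, n = 2 per group, limma adjusted p = 0.784). The 95% interval of that difference was -0.56 to 1.74. The dimmer Clic6 probe gave 143 and 313 against 196 and 174. Its scaled levels did not overlap, at -0.77 and -0.65 against -1.05 and -1.60, and it differed by 0.61 ± 0.46 (adjusted p = 0.781 in a fit with each probe on its own). Non-overlap in the higher direction was found for 22.4% of all genes. Both probes thus pointed the same way by about the same amount, against a median shift of 0.16 over all genes, and neither passed.

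Aqp4, a water channel of the basolateral membrane of parietal cells, had 3 probes, and they did not agree in size. The probe A_51_P419319 gave processed signals of 4.74 and 13.6 in CD44+ cells and 103 and 133 in CD44- cells. The probe A_52_P625527 gave 4.66 and 3.12 against 50.1 and 58.8. Both were well above background on the 2 CD44- arrays and on neither CD44+ array, a pattern shared by 551 of the 24375 probes with a symbol (2.26%). Against the lowest signal well above background on each CD44+ array, they were at least 4.87-fold and at least 2.26-fold lower in CD44+ cells. The limits depended on the CD44+ array: without CD44+ replicate 1 they were 8.80-fold and 4.09-fold, and without CD44+ replicate 2 they were 2.69-fold and 1.25-fold. The 2 CD44- arrays differed little, with levels of -1.98 on both for the first probe and of -3.02 and -3.16 for the second, unlike their wide gap in Atp4b.

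The third Aqp4 probe, A_52_P25710, gave 19.8 and 26.9 in CD44+ cells and 45.0 and 55.7 in CD44- cells, and was well above background on every array except that of CD44+ replicate 1. It had the highest mean level of the 3 and so stood for the gene. Its scaled levels of -3.62 and -4.20 against -3.17 and -3.24 did not overlap, and its difference of -0.70 ± 0.46 (SE, n = 2 per group) did not pass (limma adjusted p = 0.730, 95% interval -1.76 to 0.35). With normexp background correction it was 0.055. Because Aqp4 was detected by this probe on the second CD44+ array, the lower limits above hold for the other probes and not for the gene. When limma was fitted with each of 26508 tested probes on its own, A_51_P419319 passed with an adjusted p of 0.0234 and A_52_P625527 did not, at 0.0643. In that fit 0.43% of probes passed, 0.404% lower and 0.0264% higher in CD44+ cells. The fitted differences behind these p-values were -3.45 ± 0.45 and -3.41 ± 0.59, set against signals at background. A_51_P419319 passed in 6 of 12 further fits and lost its call without CD44+ replicate 1 (adjusted p = 0.174), without CD44+ replicate 2 (0.133) and under normexp background correction, where the difference was -0.94 (adjusted p = 0.789). A_52_P625527 also passed in 6 of 12 further fits, and under normexp background correction its difference was -0.28 (limma adjusted p = 0.985). With all 3 probes averaged the gene differed by -2.52 (adjusted p = 0.0862).

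Of the receptors, Cckbr and Chrm3 were measured, and both were dim. Cckbr, the gastrin receptor of parietal and enterochromaffin-like cells, gave 36.5 and 34.1 in CD44+ cells and 35.4 and 117 in CD44- cells with its brighter probe. Before scaling, the other 3 values lie close together below that of the second CD44- array. After scaling, the second CD44- array was 2.55-fold above the first, and the other 3 values no longer lay close together. The scaled levels of -2.74 and -3.85 against -3.52 and -2.17 overlapped, and the difference was -0.45 ± 0.62 (SE, n = 2 per group, limma adjusted p = 0.844). It changed sign without the second CD44- array (0.22) and without the second CD44+ array (0.11). The other Cckbr probe gave 10.3, 12.4, 10.5 and 11.2 and was above background on no array. Chrm3, the muscarinic receptor that couples to calcium release, gave 4.71 and 16.9 against 16.5 and 11.7 and was above background on the first CD44- array alone, so it was not tested. At this signal a difference between the groups in Chrm3 was not detectable.

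Esrrg, an orphan nuclear receptor that controls metabolic and ion transport genes in parietal cells, gave 91.6 and 121 in CD44+ cells and 101 and 82.3 in CD44- cells with the probe that stood for it. The levels were -1.41 and -2.02 against -2.00 and -2.68, which overlapped, and the difference was 0.62 ± 0.49 (SE, n = 2 per group, limma adjusted p = 0.777, 95% interval -0.51 to 1.75). A dimmer probe gave 4.71 and 15.7 against 4.65 and 35.7 and was above background on the second array of each group only. That probe was not tested. Esrrg and Clic6 were the 2 genes whose difference lay above 0, and both stayed above 0 under all 17 alternative settings.

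**Figure D2:**
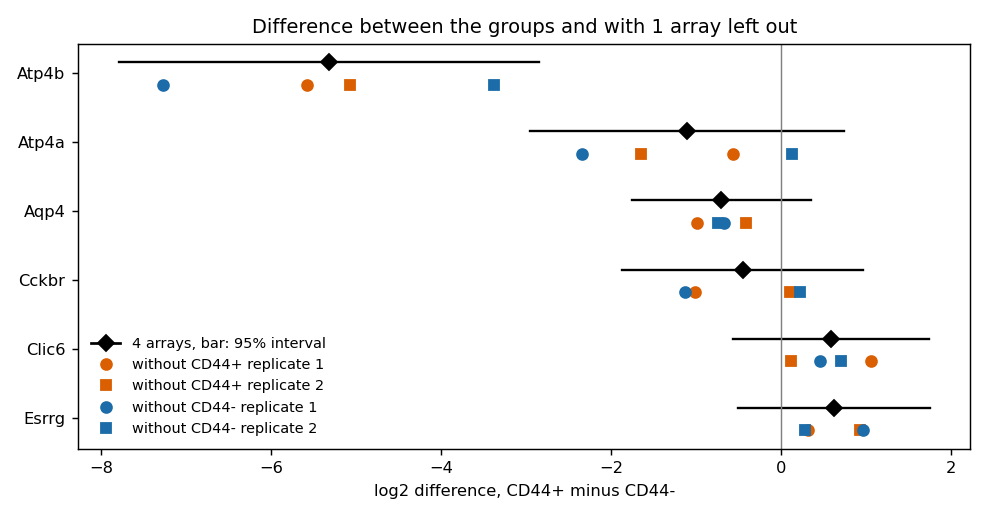
Log2 difference (CD44+ minus CD44-) of the 6 tested genes; black diamonds and bars give limma's estimate from the 4 arrays with its 95% interval, and coloured symbols the estimate with 1 array left out. Atp4b lies between -7.27 and -3.38 whichever array is left out, whereas Atp4a and Cckbr cross 0 without the second CD44- array.

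Some markers of other cells also had their highest signal on the second CD44- array, as Atp4b, Atp4a and Cckbr did. Among chief cell markers, whose cells lie below parietal cells in the gastric gland, pepsinogen Pga5 had levels of -1.60 and -0.25 in CD44+ cells and 1.22 and 3.04 in CD44- cells. The chitinase Chia1 had -3.57 and -4.05 against -4.05 and 1.95. Pgc, a pepsinogen named after its values were seen, had -1.80 and 0.41 against -1.03 and 3.01. These 3 of 5 chief cell markers tested were over 2-fold higher on it than on the first CD44- array. Ctse (8.18 and 7.90 against 7.74 and 6.20), which surface cells also make, was not. Bhlha15, also named after its values were seen, was lower on the second CD44- array than on the first. Its difference was 1.20 without the first CD44- array and -0.59 without the second. The log2 of the summed chief marker level, which Ctse dominates, was 7.91 to 8.18 in CD44+ and 6.55 to 7.77 in CD44- cells, and Cblif was too dim to test. Of all genes, 10.9% were over 2-fold and 3.54% over 4-fold higher on the second CD44- array than on the first.

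Stromal markers were mostly highest on the second CD44- array too. All 8 endothelial markers tested were over 2-fold higher on it than on the first CD44- array, 7 of them at their highest there, and Cdh5, a junctional cadherin, had levels of -4.84 and -3.45 against -1.21 and 1.83. The log2 of their summed level was 0.07 and 1.84 in CD44+ cells and 3.48 and 7.83 in CD44- cells, and Pecam1 and Tie1 were too dim to test. Of the 9 fibroblast markers tested, 8 were over 2-fold higher on it, with Lum at -0.75 and 1.19 against 2.59 and 5.50. Their summed log2 level was 3.60 and 5.56 against 6.29 and 8.85. None of the 6 epithelial, 5 surface mucous or 6 mucous neck markers tested was highest on that array. Of the mucous neck markers, 2 were still over 2-fold higher on it than on the first CD44- array. Highest on the second CD44- array were also 5 of 5 smooth muscle, 9 of 11 enteroendocrine, 5 of 7 tuft and 5 of 8 squamous markers. For neuron and glia markers it was 3 of 6 and for leukocyte markers 2 of 6, against 25.3% of all genes. The epithelial summed level was 11.03 and 10.51 against 10.93 and 9.69.

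Of 8 markers of stratified squamous epithelium tested, 6 were higher on both CD44- arrays, as the Aqp4 probes were. Ivl and Lor, named after their values were seen, were not. Over the alternative settings Ivl differed by 1.04 to 1.78 and Lor by -0.24 to 0.62. The log2 summed level of the 8 markers was 3.88 and 1.08 in CD44+ cells and 7.70 and 8.47 in CD44- cells, and 6 of the 8 were below 0. Krtdap, a keratinocyte differentiation gene, was well above background in CD44- cells alone, with levels of 3.60 and 3.21 on the CD44- arrays. It was at least 204-fold lower in CD44+ cells, or at least 113-fold without CD44+ replicate 2 and 369-fold without CD44+ replicate 1. The limma adjusted p of 0.000716 for Krtdap belongs to a difference fitted against background signal in CD44+ cells, and the limit was not tested. The basal keratins Krt15 (-5.44 ± 0.88) and Krt14 (-6.20 ± 1.07) did not pass (adjusted p of 0.0570 and 0.0732). Of the list 1 gene passed, and 5 did without CD44+ replicate 1, without CD44- replicate 1 or without CD44- replicate 2. Of 7 tuft cell markers tested 5 were below 0. Il25, a tuft cell cytokine, had levels of -5.68 and -5.93 against -2.95 and -2.65 and passed (limma adjusted p = 0.0422). It lost its call with either CD44+ array left out. Its signal was well above background in CD44- cells alone, so its p-value too comes from a fit against background signal. By the lower limit it was at least 2.77-fold lower in CD44+ cells. That limit was 5.01-fold without CD44+ replicate 1 and 1.53-fold without CD44+ replicate 2. Over the alternative settings its difference shrank to -0.46. The part of cell makeup in the values of Atp4b, Atp4a, Cckbr and Aqp4 was not tested.

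**Figure D3:**
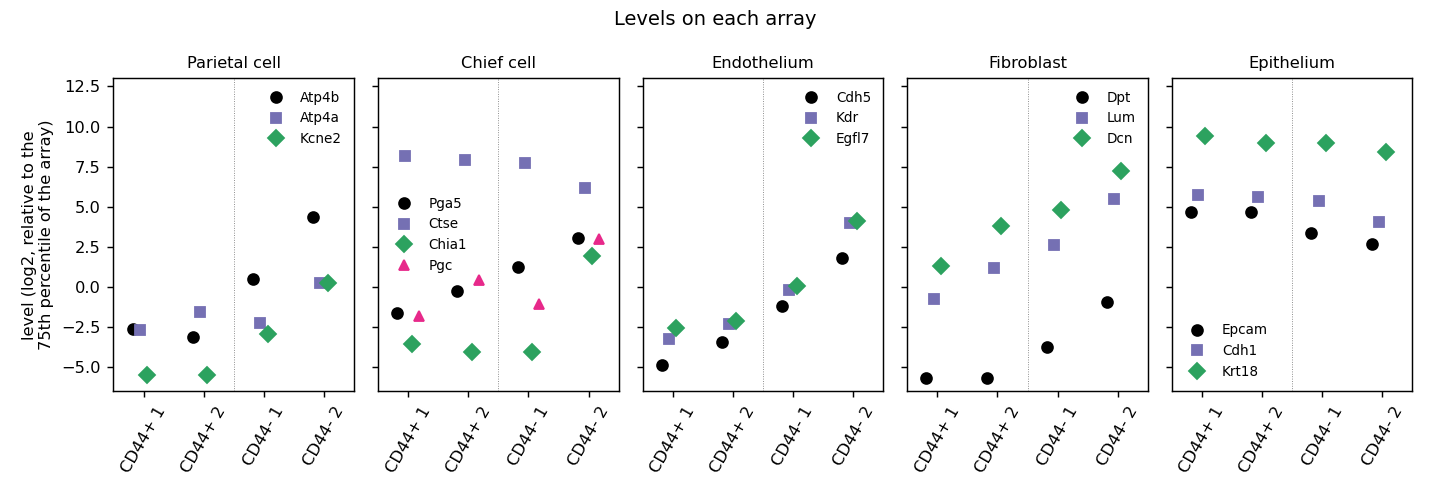
Levels (log2, relative to each array's 75th percentile) of parietal, chief, endothelial, fibroblast and epithelial genes on the 4 arrays, with the dotted line parting CD44+ from CD44- arrays. Atp4b, Atp4a and Kcne2 are highest on the second CD44- array (4.37, 0.23 and 0.22), as are Pga5, Cdh5 and Lum, while Epcam is lowest there (2.70).

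Other genes of the parietal secretory machinery gave no calls. Of 20 listed genes 17 were tested, 12 above and 5 below 0 with a median difference of 0.21. Kcne2, the accessory subunit of the apical potassium channel, stood apart, with signal well above background in CD44- cells alone, at levels of -2.96 and 0.22. It was at least 7.46-fold lower in CD44+ cells, and limma's adjusted p was 0.124. That limit was 22.4-fold without CD44- replicate 1 and 2.48-fold without CD44- replicate 2, and 13.5-fold and 4.13-fold without CD44+ replicate 1 and 2. The fitted difference of -4.14 ± 0.90 was -5.73 and -2.56 without CD44- replicate 1 or 2. The spread in those fits was mostly that of the CD44+ pair pooled over all genes (73.3 degrees of freedom from the variance model). It was not that of Kcne2 itself, whose CD44+ spots were at background. Kcnq1, the pore subunit with which Kcne2 assembles, was measured on the opposite side, at 5.01 and 5.08 against 3.95 and 3.49, a difference of 1.32 ± 0.45 (SE, n = 2 per group, adjusted p = 0.298). Creatine kinase Ckb (1.32 ± 0.62) and the chloride importer Slc12a2 (1.20 ± 0.58) also lay above 0 without passing (adjusted p of 0.525 and 0.550). Without CD44- replicate 2 the list had 6 genes above 0 and a median of -0.14.

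Somatostatin (Sst), ghrelin (Ghrl) and cholecystokinin (Cck), hormones of the gastric and gut endocrine cells, were lower in CD44+ cells. Of 12 listed signals 11 were tested, 9 of them below 0 with a median difference of -3.09, and 3 passed as lower in CD44+ cells (0.375% of all genes did). Somatostatin, the inhibitor of acid secretion, had levels of -2.02 and -3.92 against 3.19 and 3.69, and differed by -6.41 ± 0.65 (limma adjusted p = 0.0140). Ghrelin, an appetite hormone, had -3.53 and 0.51 against 7.38 and 8.51, and differed by -9.45 ± 1.14 (adjusted p = 0.0228); its probe was not well above background on the first CD44+ array. Cholecystokinin (Cck), a gut peptide that binds Cckar and Cckbr, had levels of -4.14 and -4.04 in CD44+ cells and of -0.10 and 1.90 in CD44- cells, and passed at -4.99 ± 0.66 (SE, n = 2 per group, adjusted p = 0.0284). Its CD44+ signal was above background on the second array only. Leaving out either CD44+ array ended the call for Cck (adjusted p of 0.246 and 0.212 without the first and second), and leaving out the second ended it for somatostatin (0.137), while ghrelin passed without any 1 array. With quantile normalization none of the 3 passed (adjusted p of 0.0847 for Sst, 0.140 for Ghrl and 0.161 for Cck). With the 75th percentile over probes above background on all arrays none did either (0.0934, 0.108 and 0.128), and Ghrl did not with the trended robust fit (0.356). Without CD44- replicate 1 or 2 Cck differed by -5.99 and -3.99, and ghrelin by -10.02 and -8.89. Without CD44+ replicate 1 or 2 ghrelin differed by -7.43 and -11.47, and somatostatin by -7.36 and -5.46. The median difference of the 11 signals was -3.23 and -2.95 without CD44+ replicate 1 or 2, and -4.12 and -2.05 without CD44- replicate 1 or 2.

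Hdc, which makes the histamine that acts on Hrh2, had levels of -3.87 and -2.44 in CD44+ cells and 0.52 and 2.84 in CD44- cells. Its difference of -4.83 ± 0.81 (SE, n = 2 per group) did not pass (adjusted p = 0.0632), and its CD44+ signal was above background on the second array only. Gastrin (Gast), named after its values were seen, differed by -0.74 ± 0.52 (adjusted p = 0.755), at -2.10 and -3.13 against -1.64 and -2.12. The enteroendocrine marker list, of which Sst, Ghrl, Hdc and Gast are members, was below 0 for all 11 genes tested, of which 6 passed, against 0.375% of all genes. The count was 1 with quantile normalization, where 6 of all 21045 genes passed, and 1 with the percentile over detected probes, where 3 did. Without CD44+ replicate 2 the median difference of the list was -4.76, against -4.83 with all arrays.

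Signal transducers below the acid receptors and parietal differentiation factors gave no calls over all genes. Of 20 transducers tested, 12 lay above and 8 below 0, with a median of 0.20, or -0.08 without CD44- replicate 2. The largest difference was that of Itpr2, an inositol trisphosphate receptor, at 0.14 and 0.37 in CD44+ against 2.00 and 3.18 in CD44- cells (-2.34 ± 0.53, SE, limma adjusted p = 0.132), followed by the kinase Camk2b (-1.66 ± 0.44, adjusted p = 0.182). Of 15 differentiation factors tested, 9 lay above 0, with a median of 0.15. Sonic hedgehog (Shh), a morphogen that parietal cells secrete, had -2.48 and -2.99 against 1.64 and -1.96, so that the first CD44- array was the high one, and its difference of -2.57 ± 1.01 did not pass (adjusted p = 0.388). Esrrb, a relative of Esrrg, differed by 1.11 ± 0.54 (adjusted p = 0.553).

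None of the relatives of the acid genes passed over all genes. Of 5 pump relatives tested, the sodium pump beta subunit Atp1b1 differed by 0.46 ± 0.45 (SE, n = 2 per group, limma adjusted p = 0.804). Among the 7 aquaporins tested, Aqp5, a water channel of secretory glands, differed by 3.08 ± 0.91 (adjusted p = 0.224) and Aqp3 by -1.94 ± 0.90 (adjusted p = 0.517). Aqp5 had levels of 3.00 and 4.95 against -0.38 and 2.16. None of the 5 Slc26 carriers, the 4 chloride intracellular channels or the 6 histamine, muscarinic and somatostatin receptors tested passed. Their medians were 0.19, -0.34 and 0.38, and that of the Slc26 carriers was -0.12 without CD44- replicate 2 and that of the receptors -0.04 without CD44+ replicate 1. Cckar, the other cholecystokinin receptor, was too dim to test.

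**Figure D4:**
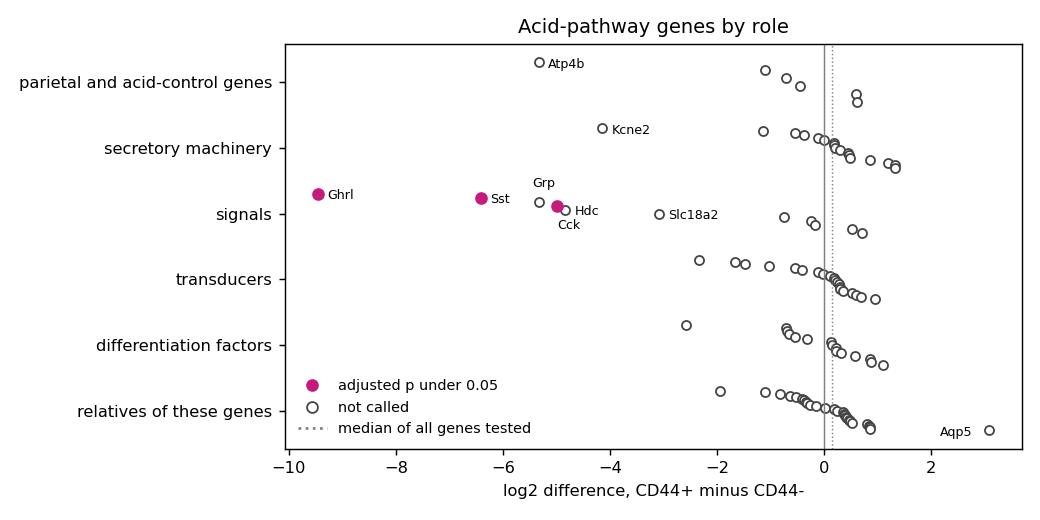
Log2 difference (CD44+ minus CD44-) of each tested gene, by role in acid secretion; filled circles passed limma's test over all genes, open circles did not, and the dotted line is the median of all genes (0.16). Ghrl, Sst and Cck are the filled circles, Atp4b and Kcne2 lie far to the left without passing, and a value such as that of Kcne2 is fitted against background signal.

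By the root mean square distance of 4 centred levels, among 13411 other tested genes with a symbol, the profiles nearest to Atp4b were those of Gimap5 (0.19), Ahsg (0.24) and St8sia4 (0.26). Gimap5 had levels of -5.66 and -5.98 in CD44+ and -2.88 and 1.37 in CD44- cells. In CD44+ cells neither Gimap5 nor St8sia4 was well above background, nor was Ahsg on the first array, so these distances rest in part on background signal. The nearest to Atp4a were Dmwd (0.055), Ackr3 (0.10) and Arhgap6 (0.10), and to Cckbr Grasp, Lmod1 and Rassf2, the last not well above background on the first CD44+ array. Clic6 lay nearest to Gsk3a, Aig1 and Sms, and Esrrg to Tom1, Nipa2 and Olfr715. These are descriptions over 4 arrays.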

How the data were processed

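Total RNA (25 ng) was amplified and 0.2 ug of the product carried Cy3, per the labels' protocols. The authors deposited 1 scanner table per array, written by Agilent Feature Extraction 10.1.1.1 per the file headers (the submitters' processing notes name 9.5). Its processed signal is a background-subtracted intensity on a linear scale, unscaled between arrays, per the file headers. The authors' value table holds a linear ratio of each probe to its median over the 4 arrays, as found by setting it against the scanner values (column medians 0.853 and 0.989 for CD44+, 0.928 and 0.739 for CD44-); the choice of its array factors was not stated.

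Control spots and 109 to 133 outlier spots an array were dropped, and repeat spots of a probe averaged. Log2 signals minus the 75th percentile were compared with limma 3.58.1 in R 4.3.3 (2 residual degrees of freedom plus 6.01 from the variance model), adjusted over all genes tested. Errors are standard errors. The script was tested on simulated data. Genes were named through RefSeq (GRCm38.p6); the array was designed on another build, and coordinates are left out. For normexp, the median spot signal replaced the mean, which the tables used here do not hold. The genes and lists were chosen with earlier results of these data known. Named beside the acid genes were Cd44, called genes and up to 4 genes per pathway list and 3 per marker list with the smallest p, and the 3 nearest profiles of each acid gene above background on all arrays.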

Additional observations from a re-analysis of the deposited data

How the results depend on the processing

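The count of acid genes that passed was 0 with all arrays and the settings above. It was 1 (Atp4b) with median scaling, normexp background correction, probes above background on all arrays only, the authors' value table and the replicate block. With each probe fitted on its own the count was also 1, through Aqp4 probe A_51_P419319 alone, fitted against CD44+ signal at background. It ranged from 0 to 2 with 1 array left out. Over all genes, where 84 passed, the count was 733 with median scaling, 753 in the authors' value table, 531 with normexp, 241 with eBayes trend and robust, 24 with no filter on dim probes, 6 with quantile normalization and 3 with the 75th percentile taken over probes above background on all arrays. Leaving out the first or second CD44+ array gave 34 and 2, and leaving out the first or second CD44- array gave 1569 and 449. Of the called genes, 16.5% were higher in CD44+ cells with median scaling and 16.1% in the authors' value table, against 5.95% here. Those 2 scalings moved the median of all genes by 0.12 and 0.10, and the percentile over detected probes by -0.10.

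With the replicate block, 1829 genes passed, and Atp4b passed with an adjusted p of 3.27e-22. That fit gave every gene the same standard error (0.516), and the normexp fit did too (0.499). A p-value from either fit does not measure the spread of its own gene. Same-numbered arrays deviated together with a correlation of 0.35 over 21045 genes, but nothing in the labels ties them, and with 2 pairs this does not show that the numbers pair the samples. Directions turned in 5 cases, all without a call: Aqp4 (0.055) and Cckbr (0.013) with normexp, Atp4a (0.13) and Cckbr (0.22) without CD44- replicate 2, and Cckbr (0.11) without CD44+ replicate 2. Leave-one-out differences ran from -2.34 to 0.13 for Atp4a, from -1.12 to 0.22 for Cckbr and from -7.27 to -3.38 for Atp4b. A slide block could not be fitted, since all arrays share 1 slide and 1 scan. The 75th percentile over spots was added after the data were seen.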
